A study of Mus musculus with 7 samples.

Results

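Open chromatin in cells sorted as Sox2-positive from the lower incisor was set against that of whole first molars, all taken from mice at postnatal day 2. The sorted side had 2 replicate libraries and the molar side had 1 library of the lower first molar and 1 of the upper, so 4 of the 7 libraries of the series entered. Peaks on the 19 autosomes that shared 1 bp or more were merged across the 4 lists, and a region was side-only where both libraries of one side had a peak in it and neither library of the other did. Of 82552 merged regions, 1154 were Sox2-positive-only and 20858 molar-only. Hand2, Alx1 and Isl1 stood among the genes with the few Sox2-positive-only regions, while Barx1, Pitx1, Shh and Trp63 stood among the genes with molar-only regions. Side-only refers to the 4 libraries: the regions of Hand2, Alx1 and Isl1 also had peaks in the whole lower incisor, a library outside the comparison. The comparison was defined by the sample labels and by no measured value.

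ATAC-seq (here the Omni-ATAC variant) uses a transposase to cut accessible DNA, and a peak marks a stretch where cuts pile up. The sorted cells came from Sox2-GFP mice, in which the Sox2 promoter drives a green fluorescent protein. Their labial cervical loop was dissociated with Collagenase and Neutral Protease and the GFP-bearing cells were collected by FACS, a fluorescence sort. The molars were dissected whole and hold epithelium, mesenchyme and other cells together, and no strain or genotype is given for them. The number of animals behind a library is not given either. Sorting, dissociation and tooth type therefore vary together between the sides and cannot be told apart. Jaw varies within the molar side, and only the lower molar shares it with the sorted cells. A peak missing from a whole tooth can mean that few of its cells have the site open or that the site is less open in each cell, and these cannot be told apart either.

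The mouse incisor grows throughout life from epithelial stem cells in the labial cervical loop, whereas the molar stops growing and forms roots. Sox2, a transcription factor, marks those stem cells. Tooth type is patterned in the jaw by homeobox and related factors: Barx1 and Pitx1 are known from the molar-forming part, Hand2 and Isl1 from the front of the jaw where incisors form. Shh is the secreted hedgehog ligand of the tooth epithelium.

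The promoters of Hand2 and Barx1 are shown because each lay under a side-only region, on opposite sides, with all peaks and again with 38000 peaks per list. The sequences are the 250 bases before the RefSeq start of each gene (GRCm38.p6), both on the plus strand, and capitals mark matches to a searched motif. That of Hand2, at chr8:57320733-57320982, overlapped the Sox2-positive-only region chr8:57320780-57321213, and that of Barx1, at chr13:48662786-48663035, overlapped the molar-only region chr13:48662273-48663090.
Hand2: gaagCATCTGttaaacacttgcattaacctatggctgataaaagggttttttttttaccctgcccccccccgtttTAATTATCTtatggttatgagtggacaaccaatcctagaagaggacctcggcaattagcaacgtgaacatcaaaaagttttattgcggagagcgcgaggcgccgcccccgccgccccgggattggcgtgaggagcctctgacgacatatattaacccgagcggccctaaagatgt
Barx1: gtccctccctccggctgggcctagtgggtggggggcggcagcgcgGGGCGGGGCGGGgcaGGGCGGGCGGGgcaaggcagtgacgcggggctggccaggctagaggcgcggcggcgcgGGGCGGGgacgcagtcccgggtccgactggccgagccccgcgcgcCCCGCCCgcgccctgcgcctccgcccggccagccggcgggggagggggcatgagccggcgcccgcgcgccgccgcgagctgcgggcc
The Hand2 promoter held 1 CATCTG, 1 TAATTA and 1 AGATAA (read here on the other strand), the last overlapping TAATTA, and its GC content was 49.2%. The Barx1 promoter was 85.6% GC and held 6 CCCGCCC matches on either strand, some of which overlap. Among 20085 autosomal promoters of the same 250 bases, CATCTG occurred in 12.5%, TAATTA in 4.26%, AGATAA in 8.72% and CCCGCCC in 31.7%. None of the other 15 motifs searched matched either window. These were AP-1 (TGANTCA), SOX (ACAANG), RUNX (TGTGGT), grainyhead-like (AACNNGTT), TEAD (GGAATG), PITX (TAATCC), the E-box CAGCTG, ETS (GGAAGT), TCF/LEF (TCAAAG), AP-2 (GCCNNNGGC) and EBF (CCCNNGGG), and by name the motifs of the p53 family, NFI, CTCF and MEF2, each on both strands.

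The molar side had more side-only regions than the sorted side, and its peak lists were longer. Sox2-positive replicates 1 and 2 had 41829 and 38326 autosomal peaks, the lower molar 68877 and the upper molar 67193. With all peaks, the 1154 Sox2-positive-only regions were 1.4% of the merged regions and 4.02% of the 28686 regions held by both sorted libraries. The 20858 molar-only regions were 25.3% of the merged regions and 35.8% of the 58230 held by both molars, 18.1 times the Sox2-positive-only number. A total of 26712 regions had a peak in all 4 libraries.

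With each list trimmed to its 38000 autosomal peaks of highest −log10 p, the same rule gave 57418 merged regions. Of these 3669 (6.39%) were Sox2-positive-only and 6711 (11.7%) molar-only, a ratio of 1.83. The trimming kept 90.8% and 99.1% of the sorted lists and 55.2% and 56.6% of the molar lists, so it removed weak molar peaks above all, and 2087 (56.9%) of the 3669 Sox2-positive-only regions overlapped regions that all 4 libraries held before trimming. Regions with the same call in both settings numbered 952 on the Sox2-positive side (1.15% of 82552) and 6221 on the molar side (7.54%). They were 82.5% of the 1154 and 25.9% of the 3669 Sox2-positive-only regions, and 29.8% of the 20858 and 92.7% of the 6711 molar-only regions. The molar side held more regions in each of these 3 settings, and the size of the gap moved with list length. It also moved with the sorted replicates: with all peaks there were 4464 Sox2-positive-only regions without replicate 1 and 4107 without replicate 2. With 2 libraries against 2, an exact permutation test cannot go below a two-sided p of 0.33, so no p is given for these counts.

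**Figure D1:**
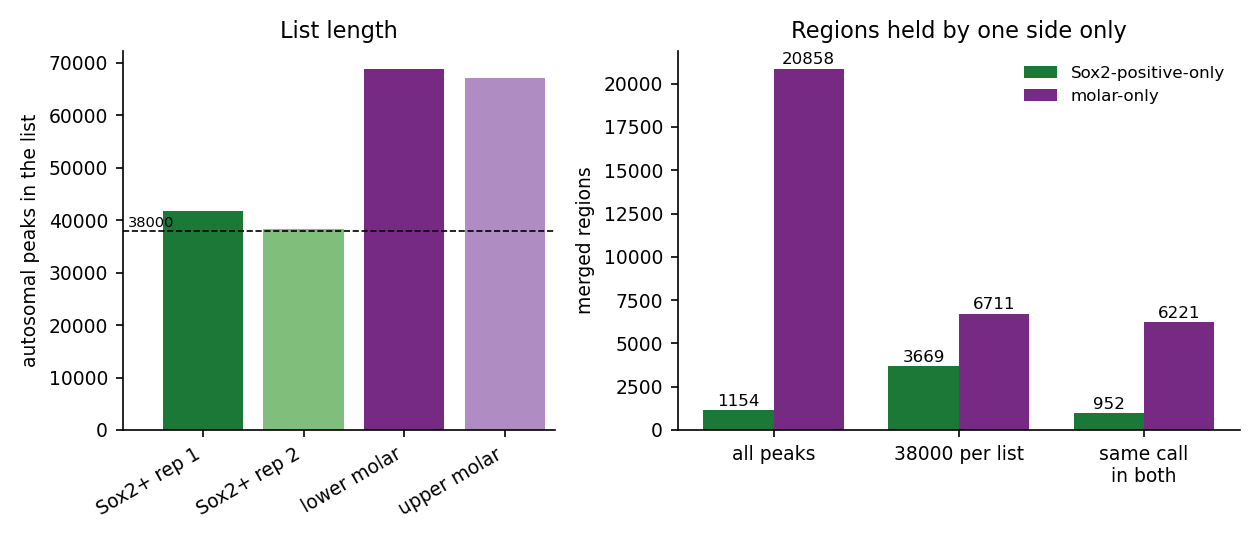
Left, autosomal peaks in each of the 4 lists, with a dashed line at 38000. Right, merged regions held by both libraries of one side and neither of the other, with all peaks (1154 and 20858), with 38000 peaks per list (3669 and 6711) and with the same call in both (952 and 6221); the purple molar-only bar is the taller in each pair.

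The sorted replicates resembled each other less than the molars of different jaws did. The Jaccard index, base pairs shared by 2 lists over base pairs in either, was 0.562 for the Sox2-positive pair and 0.736 for the molar pair, and 0.461 to 0.5 for the 4 pairs across the sides. At 38000 peaks per list these were 0.566, 0.749 and 0.498 to 0.541. Replicate 1 lay nearer the molars than replicate 2 did, with indices of 0.5 and 0.494 against 0.48 and 0.461. Within the molar side, 517 regions were held by both sorted libraries and the lower molar alone, and 303 by both sorted libraries and the upper molar alone. At 38000 peaks per list these numbers were 914 and 880. With 1 library per molar, tooth and library cannot be told apart.

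The libraries outside the comparison, a whole lower incisor at postnatal day 2 and 2 of first pharyngeal arch ectoderm at embryonic day 11.5, served as an independent readout of the side-only regions. Of the 1154 Sox2-positive-only regions, 59.4% had a peak in the whole incisor (Wilson 95% interval 56.5 to 62.2), against 39.7% of the molar-only regions (39.1 to 40.4) and 97.4% of regions held by all 4. Intervals cover the counting of regions only. Peaks in both ectoderm libraries were found in 15.7% of Sox2-positive-only and 26.3% of molar-only regions. Regions seen in none of these 3 libraries were 26.3% of the Sox2-positive-only and 38.6% of the molar-only. At 38000 peaks per list the incisor shares were 53.8% and 26.4%, and for regions with the same call in both settings 59.9% and 52.1%. The shares with a peak in both ectoderm libraries were 18.5% and 18.8% at 38000 peaks, so the sides hardly differed there. For regions with the same call in both settings they were 15.5% and 24.6%. Regions seen in none of the 3 libraries were 31.1% and 55.6% at 38000 peaks.

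The incisor share of the Sox2-positive-only regions rested on replicate 2. Without replicate 2 it was 36.3%, below the 47.8% of molar-only regions, and without replicate 1 it was 63.9% against 47.4%. With replicate 1 alone the order of the sides was thus the opposite.

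**Figure D2:**
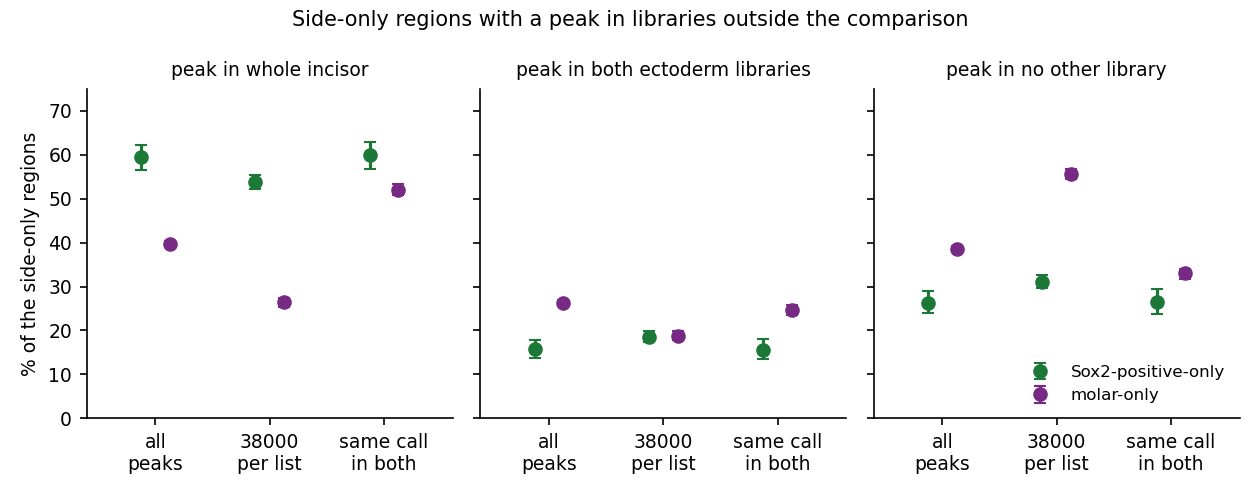
Percent of Sox2-positive-only (green) and molar-only (purple) regions with a peak in the whole incisor, in both ectoderm libraries, or in none of these 3 libraries, for the 3 settings on the x axis; bars are Wilson 95% intervals over regions. The whole incisor holds 59.4% and 39.7% with all peaks, and 59.9% and 52.1% for the same call in both settings.

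Side-only regions lay away from gene ends on both sides. The centre lay at most 1 kb from the start or finish of an annotated coding gene for 3.81% of Sox2-positive-only and 5.08% of molar-only regions, against 37% of regions in all 4 libraries. The order turned at 38000 peaks per list, with 8.89% and 3.68%, and both shares were 3.57% for regions with the same call in both settings. Median widths were 527 bp, 430 bp and 984 bp for Sox2-positive-only, molar-only and shared regions, and median distances to a gene end were 25, 26.7 and 4.85 kb. Regions were assigned to the gene that held their centre, or else to the nearest gene end within 100 kb. Distances of named regions from a gene run from the region centre to the nearest gene end.

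Hand2, a basic helix-loop-helix factor of the mandibular arch, had 5 Sox2-positive-only regions with all peaks and no molar-only region, a number that only Mroh2a shared among the named genes. Genes with at least 1 Sox2-positive-only region were 916 of 20665 protein-coding autosomal genes (4.43%), 12.3% at 38000 peaks per list and 3.7% with the same call in both. The 5 regions ran from the promoter at chr8:57320780-57321213 to 63.3 kb beyond the gene, at chr8:57387639-57387983, and the other 3 lay 9.47, 11.8 and 16.4 kb beyond it. Peak signals, the caller's own area for each peak, were 364 and 634 in replicates 1 and 2 at the promoter and 1321 and 776 at the region 9.47 kb away. All 5 kept their call at 38000 peaks per list and all 5 had a peak in the whole incisor. Within 50 kb of Hand2 the sorted libraries had 7 and 6 peaks, the molars 2 and 2, and the incisor 12. The molar values lay below both sorted values, and at 38000 peaks per list the counts were 6 and 6 against 1 and 1. Here and for the genes below, counts within 50 kb include the peaks that made the side-only calls. They describe the locus and are no separate support for those calls.

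Alx1 and Alx4, homeobox factors of the front of the face, were described in both settings. Alx1 had 1 Sox2-positive-only region, inside the gene at chr10:103028362-103029453, with signals of 1278 and 1229. It had 2 and 1 peaks within 50 kb in the sorted libraries and none in either molar, with the same counts at 38000 peaks per list. Alx4 had no side-only region with all peaks, and its 4 and 5 peaks overlapped the 4 and 1 of the molars. Alx4 had 2 and 5 at 38000 peaks per list, against 1 and 1, without overlap.

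Isl1, a LIM homeobox factor, had the second-highest ranked Sox2-positive-only region by signal, at chr13:116296542-116297965 and 1.02 kb from the gene. Its signals were 2284 and 1615, and it had a peak in the incisor and in both ectoderm libraries as well. All 4 libraries had a peak within 1 kb of an end of Isl1, counted over both ends together. That count does not place the difference, since the region itself reached within 1 kb of the gene. Its centre lay outside the gene. The other regions ranked highest on this side lay in or near Fez1 (signals 1633 and 1719), Nap1l1 (1417 and 1604), Gipc2 (2238 and 1266) and Exoc6 (1258 and 1257).

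**Figure D3:**
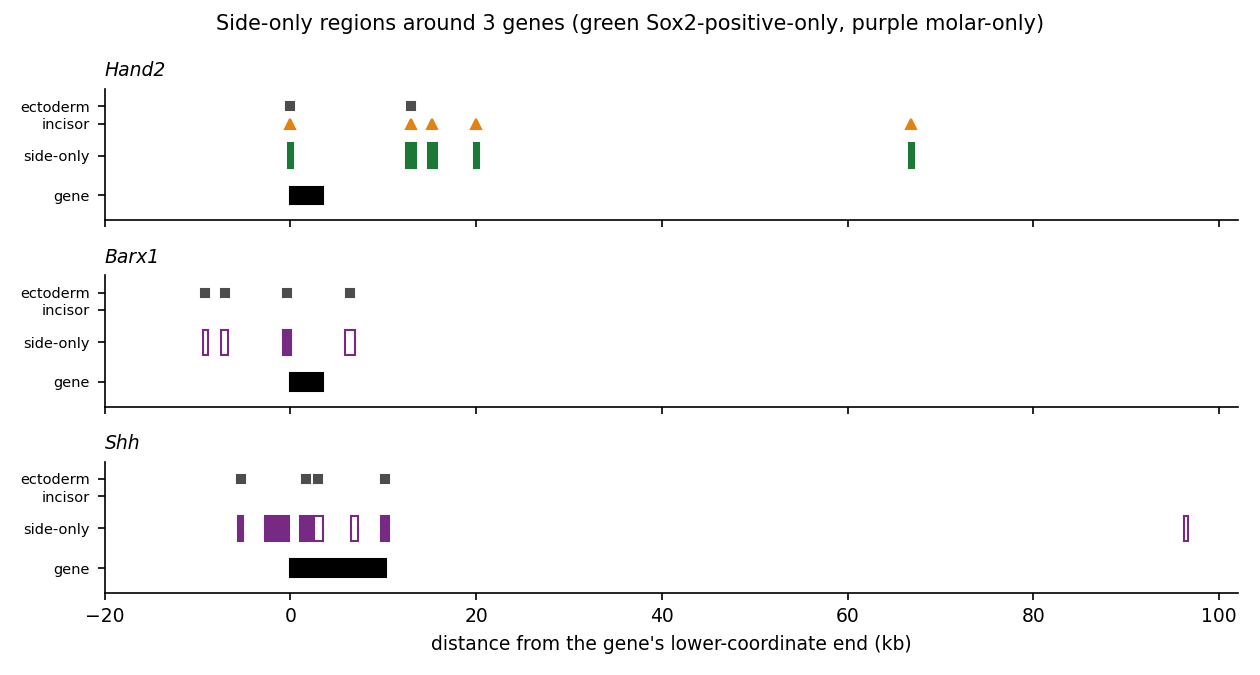
Side-only regions around Hand2, Barx1 and Shh by distance in kb from the lower-coordinate end of each gene (black bar). Green boxes are Sox2-positive-only and purple boxes molar-only, filled where the call is the same at 38000 peaks per list; orange triangles mark a peak in the whole incisor and grey squares one in either ectoderm library. All Hand2 regions carry a triangle and no Barx1 or Shh region does.

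Peaks at gene ends gave few genes on the Sox2-positive side. With all peaks 21 genes (0.102% of 20665) had a gene-end peak in both sorted libraries and neither molar, against 605 (2.93%) in both molars and neither sorted library. At 38000 peaks per list the numbers were 265 (1.28%) and 161 (0.779%), so the order turned. With the same call in both settings there were 17 (0.0823%) and 141 (0.682%). Of those 17, the genes on any of 21 gene lists were Alx1, Hand2 and Tyrobp, an adaptor protein of myeloid and natural killer cells that neighbours Hcst, itself among the 17. Of the 141, those on a list were Barx1, Pitx1, Shh and Fgf9, the last a secreted growth factor.

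The remaining genes with the most Sox2-positive-only regions were of mixed function. Mroh2a had 5 such regions and Hjurp, a histone chaperone of the centromere, had 2. A block of 60 kb on chromosome 1 at these genes held 6 Sox2-positive-only regions and was covered by peaks over 62.9% and 62.5% of its length in the sorted libraries. The same block was covered over 26.2% and 21.7% in the molars, 26.1% in the incisor and 7.28% and 19.5% in the ectoderm, and none of the 5 Mroh2a regions had a peak in the incisor. Whether such dense tiling bears on these calls was not tested, and Mroh2a had 6 Sox2-positive-only regions at 38000 peaks per list, although only 1 of the 5 merged regions had the same call in both settings. With all peaks the number was 11 when replicate 1 or replicate 2 was left out. Ino80c, a chromatin remodeller subunit, had 4 regions against 1 molar-only, and Pkdcc, a secreted tyrosine kinase, had 3 against 1. Cldn10 (a claudin), Col8a2 and Col9a1 (collagen chains), Fam83a, Gtf2i and Ednra (an endothelin receptor) had 2 each and no molar-only region. The excess over molar-only regions fell to 0 for Ednra without replicate 2 or without the lower molar, and for Gtf2i without the upper molar.

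Barx1, a homeobox factor of the molar field, had regions on the molar side alone, and genes with at least 1 molar-only region were 7757 of 20665 (37.5%), 18.2% at 38000 peaks per list and 17.2% with the same call in both. Barx1 had 4 molar-only regions, of which the one over the promoter had signals of 1097 and 1120 in the lower and upper molar and kept its call at 38000 peaks per list. None of the 4 had a peak in the whole incisor, and all 4 had one in an ectoderm library. Both molars had 8 peaks within 50 kb of Barx1 against 4 and 2 in the sorted libraries, but 3 and 3 against 4 and 2 at 38000 peaks per list, where the sides overlapped.

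Pitx1, a homeobox factor of the lower jaw, had 7 molar-only regions, 1 of which kept its call at 38000 peaks per list. That region, at chr13:55863953-55864957 and 28.3 kb from the gene, had signals of 1195 and 1355. Peaks within 50 kb numbered 14 and 11 in the molars and 2 and 5 in the sorted libraries, and 8 and 6 against 2 and 5 at 38000 peaks per list, without overlap in either case. Other genes tied to tooth type with molar-only regions were Msx2 (6), Lhx6 (5), Irx2 and Nkx2-3 (3 each). None of these had a Sox2-positive-only region with all peaks, and Lhx6 and Nkx2-3 had no molar-only region at 38000 peaks per list.

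Shh carried 7 molar-only regions, of which 4 kept their call at 38000 peaks per list, and none had a peak in the whole incisor. The widest, chr5:28454105-28456697, lay 1.44 kb from the gene and had signals of 2262 and 3520 in the lower and upper molar. Peaks within 50 kb of Shh numbered 9 and 10 in the molars, 2 and 1 in the sorted libraries, 1 in the incisor and 6 and 4 in the ectoderm. The molars also lay above both sorted libraries at 38000 peaks per list, with 6 and 6 against 1 and 1. Peaks covered 31.4% and 42.7% of the gene with 5 kb on each side in the molars, and 3.6% and 2.49% in the sorted libraries.

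The 14 genes of the hedgehog list, Shh among them, gave 5 Sox2-positive-only and 64 molar-only regions with all peaks, and 15 and 19 at 38000 peaks per list. The Sox2-positive-only shares of 7.25% and 44.1% compare with 5.33% and 36.4% over all genes, and for regions with the same call in both settings the share was 5.26%, against 13.5%. For Ptch1, the hedgehog receptor, peaks within 50 kb were 23 and 14 in the sorted libraries and 20 and 24 in the molars, which overlap. For Gli1, a transcription factor induced by the pathway, they were 9 and 11 against 9 and 8, which overlap as well. At 38000 peaks per list Gli1 had 8 and 10 in the sorted libraries against 7 and 6 in the molars, without overlap. For Gli2 the molars were higher with all peaks, at 30 and 29 against 21 and 19, and at 38000 peaks per list the sides overlapped. Molar-only regions with the same call in both settings numbered 4 at Shh and 3 at Sufu, an inhibitor of the pathway.

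**Figure D4:**
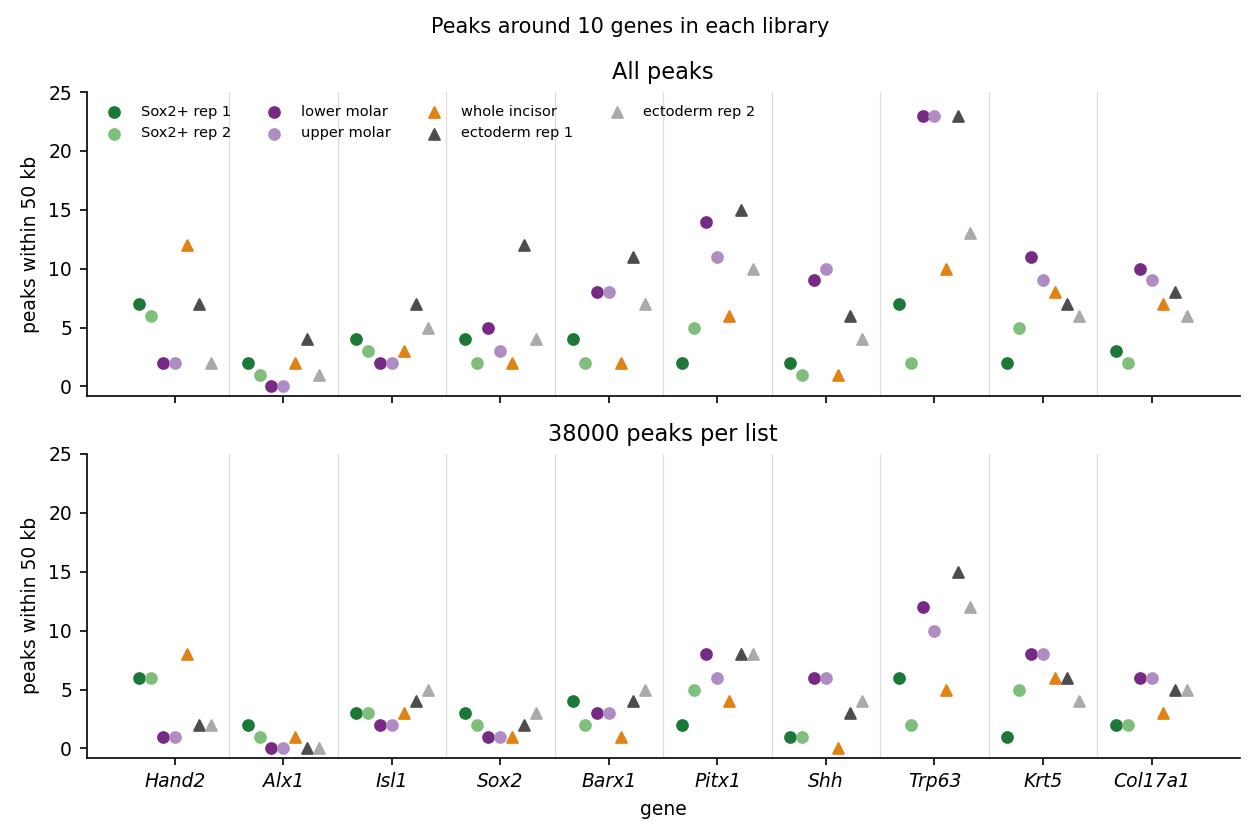
Peaks within 50 kb of 10 genes in each library, with all peaks (top) and with 38000 peaks per list (bottom); circles are the 4 compared libraries and triangles the incisor and ectoderm. For Hand2 the green circles stand at 7 and 6 over 2 and 2, and for Shh the purple circles stand at 9 and 10 over 2 and 1. The counts include the peaks that made the side-only calls.

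Genes of epithelial identity had molar-only rather than Sox2-positive-only regions, although the sorted cells are labelled epithelial. The 40 genes of that list had 2 Sox2-positive-only and 98 molar-only regions (2% Sox2-positive-only, against 5.33% over all genes), and 10 and 32 at 38000 peaks per list (23.8% against 36.4%). Genes with more peaks within 50 kb in both molars than in both sorted libraries were 13 of the 40 at 38000 peaks per list (32.5%, against 12.5% of all genes), and genes with more in both sorted libraries were 4 (10%, against 16.1%). With all peaks, where 52.8% of all genes were higher in both molars and 1.25% in both sorted libraries, the list gave 33 and 0.

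Trp63, the p63 factor that keeps basal epithelial cells, had 16 molar-only regions, 7 with the same call at 38000 peaks per list. Peaks within 50 kb of it numbered 23 and 23 in the molars, 7 and 2 in the sorted libraries and 10 in the incisor. The sides did not overlap at 38000 peaks either, with 12 and 10 against 6 and 2. Krt5 and Krt14, the paired keratins of basal cells, had 2 and 3 molar-only regions. Krt5 had 11 and 9 peaks in the molars against 2 and 5, and Krt14 had 12 and 12 against 4 and 5. Cdh1, the epithelial cadherin, had 19 and 21 against 13 and 10. These 4 genes were higher in both molars in both settings.

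The enamel list, 21 genes of enamel matrix, proteases and ameloblast factors, had no Sox2-positive-only region and 39 molar-only ones with all peaks, against a Sox2-positive-only share of 5.33% over all genes. At 38000 peaks per list it had 3 and 15, a Sox2-positive-only share of 16.7%, against 36.4% over all genes. Without Sox2-positive replicate 1 it had 8 and 47 with all peaks (14.5%, against 13.8% over all genes), and without replicate 2 it had 8 and 44 (15.4%, against 14.3%), so the lack of Sox2-positive-only regions rested on requiring both replicates. Col17a1, a collagen of the basement membrane junction, had 5 molar-only regions and Lamb3, a laminin chain, had 4. Ambn, which encodes the enamel protein ameloblastin, had 4 and 4 peaks within 50 kb in the molars against 1 and 1, and 2 and 3 against 1 and 1 at 38000 peaks per list. The incisor had 3 peaks there. Ambn is 1 example, and the list went both ways at 38000 peaks per list. There 5 of the 21 genes were higher in both molars (23.8%, against 12.5% of all genes). Higher in both sorted libraries were 4 (19%, against 16.1%). With all peaks the numbers were 18 (85.7%, against 52.8%) and 0 (against 1.25%). Of the 14 molar-only regions of the list with the same call in both settings, 11 had a peak in the whole incisor (78.6%, against 53.7% over all genes).

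Genes of tooth type and mesenchymal regulators, lists that share 15 genes, had Sox2-positive-only shares above that of all genes in both settings. The 26 genes tied to tooth type or jaw position had 11 Sox2-positive-only and 51 molar-only regions, 17.7% against 5.33% over all genes, and 67.6% against 36.4% at 38000 peaks per list. The 51 mesenchymal regulators had 18 and 98 (15.5%), and 42 and 29 (59.2%) at 38000 peaks. With all peaks the Sox2-positive-only regions lay at 5 of the 26 genes (19.2%) and 10 of the 51 (19.6%), against 4.43% of all genes. At 38000 peaks they lay at 14 (53.8%) and 27 (52.9%), against 12.3%. Molar-only regions were also more frequent at these lists, at 18 (69.2%) and 34 (66.7%) with all peaks, against 37.5% of all genes. At 38000 peaks they lay at 8 (30.8%) and 18 (35.3%), against 18.2%. Several regions of 1 gene share their source. Without Hand2 the Sox2-positive-only shares of regions with all peaks were 10.5% and 11.7%, against 5.3% over all genes, and at 38000 peaks 60.7% and 55.4%. More peaks within 50 kb in both sorted libraries were found at 38000 peaks for 10 of the 26 genes (38.5%) and 20 of the 51 (39.2%), against 16.1% of all genes. More in both molars were found for 3 (11.5%) and 5 (9.8%), against 12.5%. With all peaks, 4 (15.4%) and 3 (5.88%) were higher in both sorted libraries, against 1.25% of all genes. Higher in both molars were 15 (57.7%) and 31 (60.8%), against 52.8%. The excess in the sorted libraries at 38000 peaks was not particular to these lists. It was 47.4% for AP-1 and early genes, 46.7% for muscle, 42.9% for ectodysplasin, 36.8% for the incisor niche and 36.4% for endothelium. Below 16.1% were nerve, Schwann and pigment cells (14.3%), epithelial identity (10%) and Hox genes (0%). Examples among the 20 regulators higher in both sorted libraries at 38000 peaks are Twist2, with 8 and 5 peaks against 3 and 3, and Pax9, with 6 and 3 against 2 and 2. Both overlapped with all peaks, at 9 and 5 against 8 and 9, and 6 and 3 against 4 and 6.

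**Figure D5:**
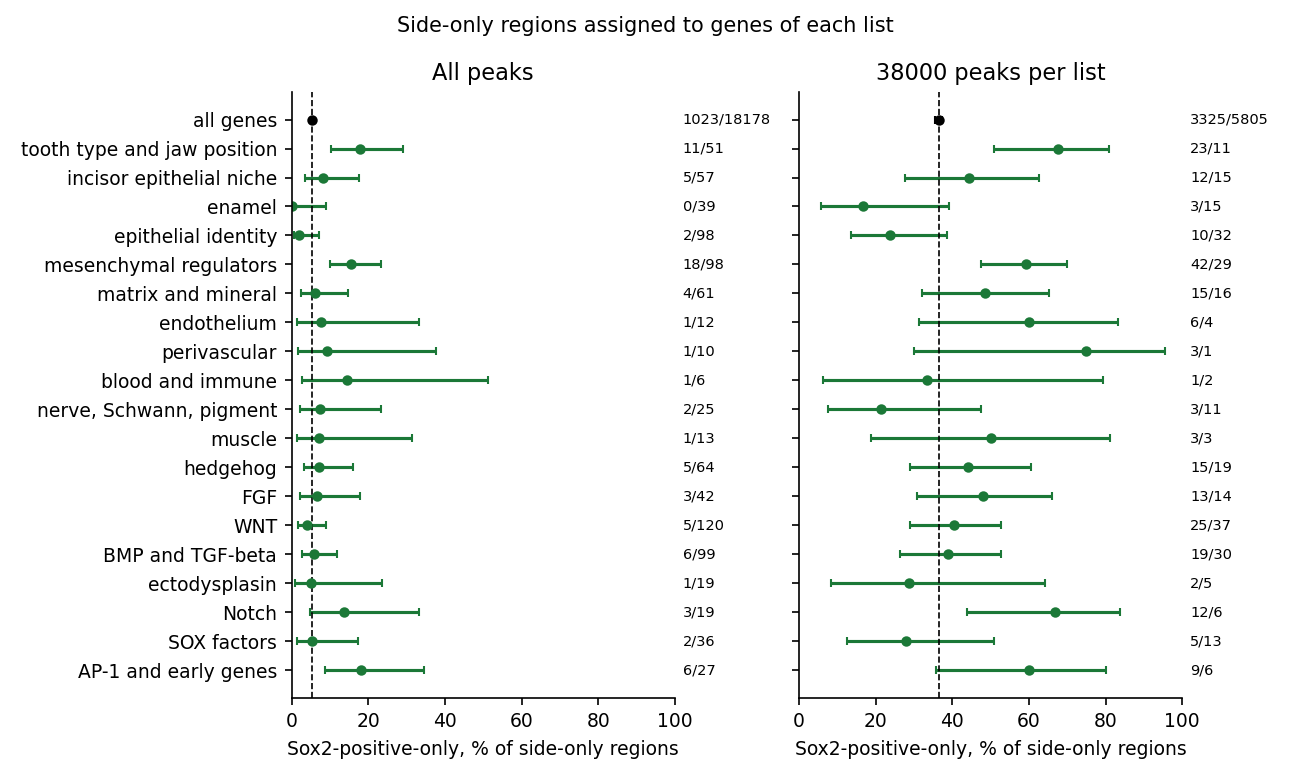
Sox2-positive-only regions as a percent of all side-only regions assigned to the genes of each list, with all peaks (left) and with 38000 peaks per list (right); the numbers are Sox2-positive-only/molar-only regions, bars are Wilson 95% intervals over regions, several of which can share a gene, and the dashed line is the value for all genes. Tooth type and mesenchymal regulators lie to the right of the line at 17.7% and 15.5%, and enamel and epithelial identity to the left at 0% and 2%.

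Marker lists gave a different picture of the libraries labelled Sox2-positive against the incisor than against the molars. A gene-end peak was present at 32 and 30 of the 40 epithelial genes in the sorted libraries, at 35 and 36 in the molars and at 27 in the whole incisor. With 38000 peaks per list these were 30 and 30, 30 and 28, and 20. For mesenchymal regulators it was present at 34 and 34 of 51 in the sorted libraries, 41 and 39 in the molars and 42 in the incisor, and at 38000 peaks at 33 and 34, 28 and 26, and 34. The sorted libraries thus had more epithelial gene-end peaks than the incisor in both settings, and fewer mesenchymal ones with all peaks. Against the molars they had fewer of both kinds with all peaks, and at 38000 peaks more mesenchymal ones and no fewer epithelial ones. Over all genes, gene-end peaks were present at 58.6% and 57.2% in the sorted libraries, 63% and 62.9% in the molars and 61.4% in the incisor. At 38000 peaks these were 57.3% and 57%, 55.8% and 56%, and 55.5%. Over all genes too, the sorted libraries thus had fewer than molars and incisor with all peaks, and more at 38000 peaks. The sorted replicates also differed near genes of matrix and mineral, with 190 and 233 peaks in total within 50 kb of the 38 genes, against 374 and 327 in the molars and 382 in the incisor. At 38000 peaks per list the totals were 175 and 232, against 179 and 171 in the molars and 238 in the incisor. The sorted mean was 0.603 times the molar mean with all peaks (0.68 over all genes). At 38000 peaks it was 1.16 times (1.05 over all genes). Peaks covered Col1a1, the main collagen of bone and dentin, with 5 kb on each side over 13.1% in replicate 1 and 68.3% in replicate 2, and over 56.6%, 20.8% and 75% in lower molar, upper molar and incisor. The part of these markers in the Sox2-positive-only calls was not tested. The blood and immune list had gene-end peaks at 6 and 5 of 21 genes in the sorted libraries (28.6% and 23.8%). In the molars there were 5 and 4 (23.8% and 19%). Of the 21 genes, 4 had one in all 4 libraries and 14 had none, among them Ptprc, Csf1r and Itgam. Tyrobp had one in both sorted libraries and neither molar, in both settings.

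Markers of the incisor epithelial niche lay on both sides. The 19 genes had 5 Sox2-positive-only regions, 2 each at Cldn10 and Yap1 (a transcriptional effector of the Hippo pathway) and 1 at Lrig1, and 57 molar-only regions, led by Spock1 (16), Fgfr2 (12), Zfp536 (9) and Lrig1 (7). The share of 8.06% compares with 5.33% over all genes, and 44.4% with 36.4% at 38000 peaks per list. At 38000 peaks 7 of the 19 genes had more peaks within 50 kb in both sorted libraries (36.8%, against 16.1% of all genes). More in both molars were found for 2 (10.5%, against 12.5%). With all peaks these numbers were 0 (against 1.25%) and 10 (52.6%, against 52.8%). Sox2 itself had a gene-end peak in all 4 libraries and 4 and 2 peaks within 50 kb in the sorted libraries against 5 and 3 in the molars, which overlap. At 38000 peaks per list the counts were 3 and 2 against 1 and 1, and the gene-end peak was then found in both sorted and both ectoderm libraries but in neither molar nor the incisor. Lgr5, a stem cell marker, had 3 and 1 peaks against 4 and 5, and at 38000 peaks 3 and 1 against 1 and 2, which overlap. Sfrp5, a secreted WNT inhibitor, had 9 and 11 against 10 and 12, and at 38000 peaks 8 and 11 against 6 and 6.

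The genes with the most molar-only regions were very long. Tenm4 had 26 (and 2 Sox2-positive-only), Bnc2 23, Lrmda, Lpp and Auts2 21 each (Auts2 with 1 Sox2-positive-only), Pard3 20, Sema5a, Dlg2, Macrod2 and Myo16 18 each, and Fto and Prkce 17 each. Their lengths ran from 355 kb for Fto to 1998 kb for Macrod2, against a median of 17.5 kb over all genes, and the genes named on the Sox2-positive side were 3.54 kb (Hand2) to 86.7 kb (Cldn10) long. Counts per gene were not scaled by length. Pard3, which organises apical-basal polarity, had 13 molar-only regions at 38000 peaks per list, the most of these 12 genes, and no Sox2-positive-only region in either setting. With the same call in both settings it had 12. The molar-only region ranked highest by signal, chr9:120961199-120966301, was 5103 bp wide and reached over an end of Ulk4, 0.704 kb from its centre. Its signals were 5145 and 5816, and it had peaks in the incisor and both ectoderm libraries. The next were a region 202 kb from any gene end, chr13:52301570-52302725, and regions in Grm7, Dlc1 and Frem2, of which those in Dlc1 and Frem2 had a peak in none of the 3 other libraries.

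Signalling lists other than Notch lay between 4% and 7.25% with all peaks, against 5.33% over all genes. Sox2-positive-only against molar-only regions were 5 and 120 for WNT genes (4%), 6 and 99 for BMP and TGF-beta genes (5.71%), 3 and 42 for FGF genes (6.67%), 5 and 64 for the hedgehog list (7.25%), 1 and 19 for ectodysplasin genes (5%) and 3 and 19 for Notch genes (13.6%). The shares at 38000 peaks per list were 40.3% for WNT, 38.8% for BMP and TGF-beta, 48.1% for FGF, 28.6% for ectodysplasin and 66.7% (12 and 6) for Notch genes, against 36.4% over all genes. The Notch share was above that of all genes in each of the 8 settings run. AP-1 and immediate early genes had 6 and 27 with all peaks (18.2%) and 9 and 6 at 38000 peaks (60%), with 1 Sox2-positive-only region each at Jun, Jund, Myc, Klf4, Ier3 and Nr4a1 with all peaks. SOX factors had 2 and 36 (5.26%) and matrix and mineral genes 4 and 61 (6.15%), and at 38000 peaks 27.8% and 48.4%. Lists of other cells gave few regions with all peaks, with 1 and 12 for endothelium, 1 and 10 for perivascular cells, 1 and 6 for blood and immune cells, 2 and 25 for nerve, Schwann and pigment cells and 1 and 13 for muscle. With 38000 peaks per list these were 6 and 4 for endothelium (60%), 3 and 1 for perivascular cells (75%), 1 and 2 for blood and immune cells (33.3%), 3 and 11 for nerve, Schwann and pigment cells (21.4%) and 3 and 3 for muscle (50%). Hox genes had 0 and 10 and cell cycle genes 0 and 7 with all peaks, and 0 and 2 and no region at 38000 peaks.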

How the data were processed

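Omni-ATAC libraries were compared as peak lists, 1 per library. Peaks were called per library with Genrich on mm10, and FastQC, Trimmomatic, Bowtie2 and deepTools are also named, per the submitters' processing notes, without versions or options. The deposited signal of a peak is the caller's area under its significance curve, at least 200 in every line, and the deposited −log10 p is that of the peak. The deposited score column and the deposited q-value column were not used, and the summit offset was used for summit windows. No value was normalized between libraries, and signals were used only within a list. Read depth is not given in the sources used here, so list length stands for sensitivity and no interval for depth can be given. Every sample column was mapped (0 left over).

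Peaks were merged, counted and assigned with Python 3.11.15, pandas 2.3.3, numpy 2.4.6 and SciPy 1.17.1, with code tested on simulated data. Regions on either side were called with all autosomal peaks and with the 38000 of highest −log10 p per list. Genes came from the RefSeq GRCm38.p6 table (20665 autosomal protein-coding genes). It was used without strand, so gene ends replace start sites. A region belonged to the gene it lay in or to the nearest gene end within 100 kb, and near meant within 1 kb. The 21 gene lists held 512 genes, of which 502 were found on autosomes.

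The members and lists were chosen with earlier results of these data known. Named were, per side, the 12 genes with the largest own-side minus other-side number of regions and the same sign at 38000 peaks (genes with clone-type names left out) and the 5 regions ranked highest by signal in both libraries. Also named were genes of the tooth-type, niche, enamel, mesenchymal and hedgehog lists with a side-only region or gene-end peak, listed genes with a gene-end peak of 1 side in both settings, and 2 to 4 examples of other lists. Some genes that this rule names are not reported here. A planned motif search in the regions was not run, since no genome was used here, and promoter sequences were searched instead. Alternatives varied list length, threshold, overlap, peak extent, chromosomes, distances and libraries. The molars are different teeth and not labelled replicates, and nothing says that the sorted replicates came from separate animals.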

Additional observations from a re-analysis of the deposited data

Results flagged for a closer look

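Chromosome X was outside the comparison, which used autosomes. It held 1257 merged regions, 497 of them in all 4 libraries, with 16 Sox2-positive-only and 272 molar-only regions. They are listed because they are side-only calls in data that the report does not use. Chromosome Y held 11 regions and no side-only one.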

How the results depend on the processing

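The molar side held more regions than the Sox2-positive side under every alternative run, but the sizes moved. With 38000 peaks per list by −log10 p there were 3669 and 6711 regions, a ratio of 1.83, incisor shares of 53.8% and 26.4% and gene-end shares of 8.89% and 3.68% (Sox2-positive-only before molar-only throughout). Chosen by signal, these were 3293 and 6123, 1.86, 50.4% and 25.8%, and 8.05% and 3.79%. With the better 50% of each list there were 524 and 10758, a ratio of 20.5, a molar-only incisor share of 35.5% and gene-end shares of 6.49% and 7.83%. Requiring 50% of a region to be covered gave incisor shares of 64.7% and 44.8% and gene-end shares of 5.16% and 5.88%. Summit windows of 200 bp gave 1924 Sox2-positive-only regions, a ratio of 11.2, incisor shares of 53.6% and 38.3% and gene-end shares of 17.4% and 6.21%. Gene-end shares were 2.08% and 2.91% within 500 bp, and 9.27% and 11.2% within 2.5 kb. Regions with the same call in both settings, chosen after seeing the data, gave 6221 molar-only regions, a ratio of 6.53, a molar-only incisor share of 52.1% and a molar-only gene-end share of 3.57%. Leaving out 1 library at a time gave 1462 to 4464 Sox2-positive-only and 24564 to 28321 molar-only regions, ratios of 5.98 to 19.4, incisor shares of 36.3% to 69.5% and 34.7% to 47.8%, and gene-end shares of 4.53% to 5.45% and 5.25% to 6.1%. The causes of these shifts were not tested, beyond fewer peaks or libraries entering by construction. Of values for named genes, 38 moved and 130 did not, and of list shares 36 moved and 111 did not. No paired analysis was possible because the molar libraries carry no replicate numbers and the counts come from no test.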
